A study of Mus musculus with 20 samples.

Results

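Embryonic day E9.5 was compared with embryonic day E8.5, the day in which the mouse embryo turns, closes most of its neural tube, starts to circulate blood and forms the first organ buds. The comparison covered 6 of the 20 arrays of a stage series, namely the 3 labelled E9.5 and the 3 labelled E8.5, with every probe set that carried a single gene symbol. Both groups were wild-type C57BL/6 mouse embryos kept specific-pathogen free and taken whole except for the amnion, of mixed sex, and the labels name stage as the one difference between them. The sex mix also varied between pools, since Xist, the RNA of the inactive X chromosome, had signals of 298 to 1270.3 at E9.5 and 1093 to 1508 at E8.5, and its part in other genes was not tested. A sample was the total RNA of a pool of embryos, and each was read on 1 Affymetrix Mouse Genome 430 2.0 array. The series calls them biological replications, so p-values rest on how much the pools of a stage vary. The E7.5 and E10.5 stages (3 arrays each) served to ask whether the change of this day differed from the day before or the day after.

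In mouse development a neural plate that is still partly open at the start of this interval is sealed into a tube, and its first cells leave division to become neurons under proneural transcription factors of the basic helix-loop-helix class. Axial growth passes from the primitive streak to a tail bud, somites are added behind the head, and Hox genes of ever higher paralogue number are switched on as the trunk lengthens. Primitive red cells born in the yolk sac enter the circulation, and turning wraps the embryo in its membranes, among them the visceral yolk sac, whose endoderm absorbs maternal nutrients and makes plasma proteins before the liver does.

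Values are MAS5 signals, a linear intensity per probe set scaled to the same trimmed mean on each array. The change of a gene is the difference of log2(signal + 25.9), E9.5 minus E8.5, with the SE of a limma fit to all 20 arrays. A gene was called where this change was at least 2-fold at a Benjamini-Hochberg adjusted p below 0.05, and only called genes are said to have risen or fallen. A call that another setting ended has that setting beside it, where the larger pseudocount is 4 times that of the fit. Because of the pseudocount, changes of weak genes come out smaller than they are. Detection calls were not used here, and the lower quartile of an array's signals was 18.6 to 24.9 at E9.5 and 19.8 to 24.3 at E8.5, so signals of that size rank among the lowest of the array. Signals given as mean ± SD have n = 3 per stage.

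Of 14044 genes tested, 349 (2.49%) rose and 236 (1.68%) fell at E9.5, and the median change of all genes was 0.01. The arrays of the 2 stages did not overlap in 340 of the 349 genes that rose and 230 of the 236 that fell, against 29.7% of all genes tested. With the adjusted p alone and no minimum fold, 9.55% of genes were higher and 6.89% lower. Replicate arrays correlated at Pearson's r of 0.980 to 0.981 at E9.5 and 0.979 to 0.984 at E8.5 across genes, which are not independent replicates. The median signal of an array lay between 67.5 and 82.7 at E9.5 and between 69.0 and 80.4 at E8.5, lowest on the first-numbered array of each stage. The ratio of 5′ to 3′ Actb control signal, a measure of RNA integrity, was 0.827 to 0.887 at E9.5 and 0.854 to 0.900 at E8.5. None of 12 genes commonly used as references was called in the limma fit (4 had an unadjusted p below 0.05). In RNA of whole embryos, fewer cells of a type and less RNA per cell cannot be told apart, and this holds for every change below.

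The genes that rose most were led by neuronal and patterning genes. Epha3, an ephrin receptor of growing axons and mesenchyme, had signals of 559, 333 and 406 at E9.5, against 6.30, 16.0 and 28.7 at E8.5. Neurog1, a proneural factor of sensory and spinal neurons, had 614, 489 and 545 at E9.5, against 33.0, 46.8 and 10.6 at E8.5. Dcx, the microtubule protein doublecortin of migrating young neurons, had 410.4, 235 and 318 at E9.5, against 4.64, 6.76 and 15.1 at E8.5. In each of these genes every E9.5 array was several times above every E8.5 array, and the changes on the log2 scale were 3.42 ± 0.20 (adjusted p = 3.3e-10), 3.41 ± 0.25 (adjusted p = 7.8e-09) and 3.30 ± 0.22 (adjusted p = 1.5e-09). Neurod4 (3.15 ± 0.26), Lhx9 (2.95 ± 0.26), Neurod1 (2.94 ± 0.21), Nhlh2 (2.75 ± 0.24) and Insm1 (2.63 ± 0.30), all transcription factors of differentiating neurons or neuroendocrine cells, stood among the 12 largest rises.

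Pou3f3, a POU-domain factor of neural and kidney progenitors, had signals of 1210.2, 1307 and 1283 at E9.5, against 174, 164 and 181 at E8.5. The noncoding RNA Pantr1, which lies next to Pou3f3 on chromosome 1 in the RefSeq gene table, had 1155, 904 and 1044 at E9.5, against 125, 93.0 and 121 at E8.5. Both rose by a similar amount, 2.70 ± 0.12 for Pou3f3 and 2.93 ± 0.19 for Pantr1, and the stages did not overlap in either. Zic1, a transcription factor of dorsal neural tissue and somites, had 3629.6, 4216 and 3701 at E9.5, against 495, 633 and 567 at E8.5. Barx1, a homeobox gene of facial and stomach mesenchyme, had 403, 311 and 338 at E9.5, against 5.57, 56.1 and 37.8 at E8.5.

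**Figure D1:**
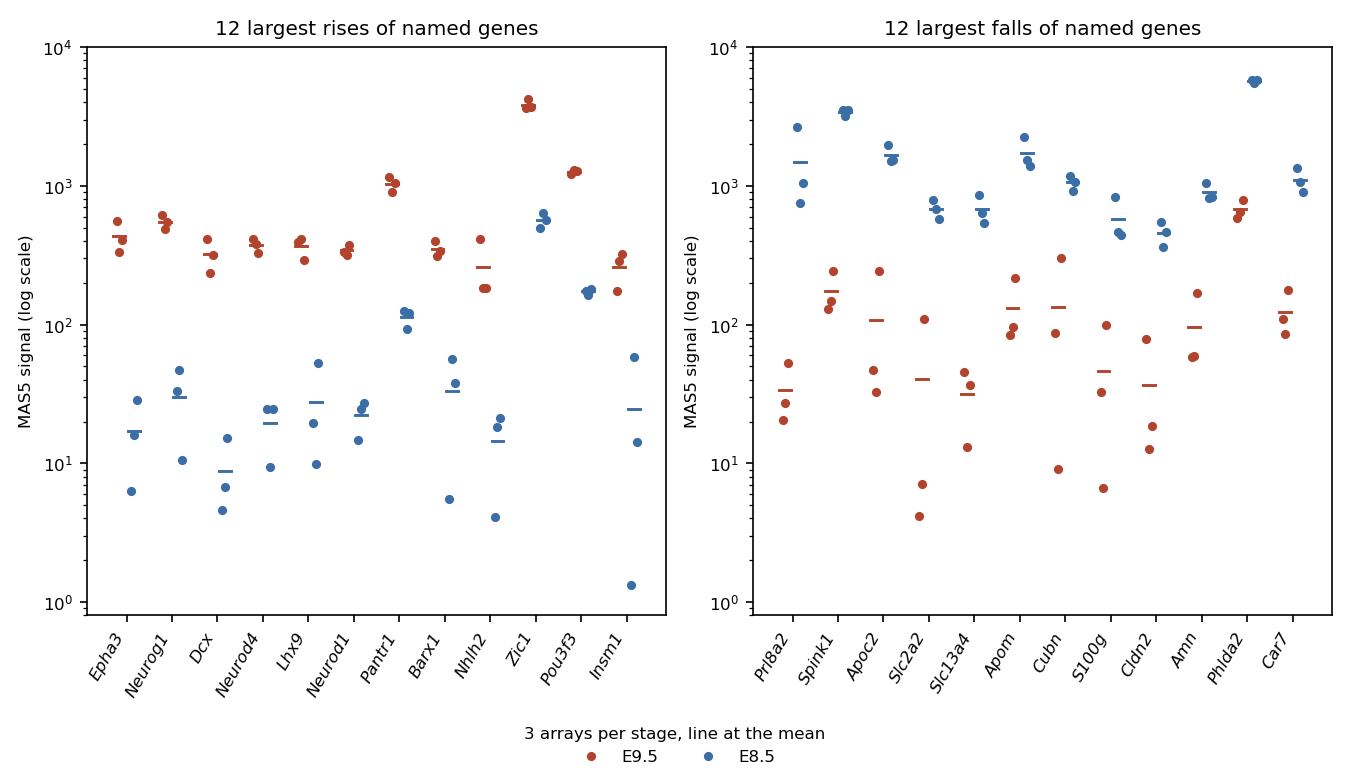
MAS5 signal on a log axis, one point per array (3 at E9.5, 3 at E8.5) with a line at the mean, for the 12 named genes with the largest rises (left) and the 12 with the largest falls (right) by log2 change. In every gene the 3 arrays of one stage lie apart from the 3 of the other, and E9.5 replicate 3 is the highest E9.5 array in most of the genes that fell.

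Proneural factors had the highest share of rises among the 45 lists. Of 21 proneural factors and their partners tested, 13 rose and 0 fell, against 2.49% and 1.68% of all genes, with a median change of 1.21 beside 0.01 for all genes, and between 12 and 14 of them were called when any one array was left out. Their summed signal was 7327, 7427 and 7660.0 at E9.5, against 3139, 3367 and 3273 at E8.5. The called members that were named rose by 2.63 (Insm1) to 3.41 (Neurog1), and the other 8 by 1.07 to 1.91. Dll1 and Dll3, Notch ligands of neural and presomitic cells alike, were not called, at -0.03 ± 0.12 and -0.27 ± 0.18.

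Among genes of young neurons, 10 of 23 were called higher and 0 lower, with a median of 0.85. In 9 more the adjusted p was below 0.05 with a change under 2-fold in either direction. Hox paralogues 9 to 13 (6 of 11) and primitive red cell genes (12 of 24) had higher shares of rises than this list. Elavl3, an RNA-binding protein found in most young neurons, had signals of 206, 219 and 197 at E9.5, against 39.9, 4.21 and 61.5 at E8.5. Mab21l1, a gene of eye and midbrain, had 214, 196 and 190.3 at E9.5, against 24.3, 29.8 and 5.57 at E8.5, and Onecut2, a factor of motor neurons and liver, had 247, 165 and 227 at E9.5, against 42.3, 23.5 and 48.2 at E8.5. The 3 genes rose by 2.07 ± 0.29, 2.34 ± 0.19 and 1.91 ± 0.21 and did not overlap between stages. Isl1, a factor of motor neurons, heart and pharynx that was already strong before, was at 1123 ± 149 at E9.5 and 763 ± 26.4 at E8.5, a change of 0.54 ± 0.11 that was not called.

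The promoter of Elavl3, the member of this list with the largest change among those that held one of 2 E-box sequences searched, is shown for the motif read by proneural proteins. RefSeq places this window at chr9:22051974-22052273 in GRCm38.p6 on the minus strand, from 250 bases before to 50 bases after the start of the gene, with CAGCTG in capitals.
Elavl3: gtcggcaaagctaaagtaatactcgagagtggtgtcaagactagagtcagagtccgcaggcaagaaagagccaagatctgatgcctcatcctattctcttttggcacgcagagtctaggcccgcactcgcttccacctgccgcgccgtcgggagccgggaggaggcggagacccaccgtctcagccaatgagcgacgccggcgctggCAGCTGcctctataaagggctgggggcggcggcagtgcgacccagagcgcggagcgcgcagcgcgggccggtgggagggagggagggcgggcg
The palindrome CAGCTG stood in 7 of 16 young neuron genes with a promoter in the table and in 3 of 7 of the called ones, against 18.3% of all 27025 genes. CAGATG, searched on both strands, stood in 3 of the 16 and in 1 of 7 of the called ones, against 19.2% of all genes. A match describes letters in a window and not a binding site.

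Progenitors of the neural tube changed in part. Of 17 genes tested, 5 rose and 0 fell (median 0.37). Fabp7, a fatty acid binding protein of radial glia, had signals of 1821, 1878 and 1896 at E9.5, against 338, 266 and 309 at E8.5, a change of 2.52 ± 0.11. Nes and Vim, intermediate filaments of progenitors, rose by 1.49 ± 0.14 and 1.2 ± 0.10, though Nes was not called with the mean over probe sets (0.90). Vim was among the strongest genes of the list, at 16786 ± 434 at E9.5 and 7293 ± 685 at E8.5. Sox2 and Sox3, factors of all early neural cells, were not called, at 0.37 ± 0.12 and -0.02 ± 0.14.

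Genes that pattern the neural tube moved both ways. In the spinal cord list 2 of 19 rose and 3 were called lower (median -0.13), and between 1 and 3 were called lower when any one array was left out. Dbx1, a factor of interneuron progenitors, had signals of 394, 372 and 383 at E9.5, against 82.3, 139.9 and 131 at E8.5, and Prdm8, a zinc-finger gene of spinal and brain neurons, had 267, 232 and 272 at E9.5, against 47.6, 67.6 and 27.7 at E8.5, changes of 1.53 ± 0.18 and 1.98 ± 0.23. Lhx1, which marks the node and lateral mesoderm earlier and interneurons later, fell, with 32.6, 38.7 and 66.8 at E9.5, against 230.0, 258 and 266 at E8.5. Evx1 was also called lower (-1.57 ± 0.42), a call lost without E8.5 replicate 1 (-1.40), E9.5 replicate 3 (-1.46) and without the first-numbered arrays (-1.30). Shh, the ventral signal, was at 1833 ± 227 at E9.5 and 1499 ± 50.7 at E8.5 and was not called (0.28 ± 0.10).

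Of 17 genes of brain regions, 0 rose and 2 fell (median -0.08). Egr2, which marks a pair of hindbrain segments, had signals of 50.6, 74.6 and 70.4 at E9.5, against 411, 412 and 451 at E8.5, a change of -2.32 ± 0.27. At E7.5 its mean had been 36.5 ± 19.4. Lhx2 and En2, genes of forebrain and midbrain-hindbrain boundary, changed by 0.63 ± 0.12 and 0.56 ± 0.18 and were not called. Among 17 genes of eye and cranial placodes, Neurod1 rose and Fgf3, a signal of the hindbrain that induces the ear, fell, with 62.5, 35.8 and 102 at E9.5, against 355, 286 and 351 at E8.5. None of 15 neural crest and Schwann cell genes was called in the limma fit (6 had an unadjusted p below 0.05, and 4 an adjusted p below 0.05 under 2-fold), and their median was 0.23. Twist1 had 1444 ± 126 at E9.5 and 775 ± 54.8 at E8.5, a change of 0.88 ± 0.10.

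Axon guidance genes split, with 4 of 29 called higher, 2 called lower and a median of 0.24. Beside Epha3, the repellents Slit1 (1.42 ± 0.28) and Sema3d (1.46 ± 0.22) rose, but were not called with the larger pseudocount (0.78 and 0.96). Epha5, an ephrin receptor, fell, with 30.2, 29.4 and 52.5 at E9.5, against 112, 171 and 156 at E8.5, and lost its call with the mean over probe sets (-0.80) and with the larger pseudocount (-0.82). The attractant Ntn1 was at 1481 ± 58.9 at E9.5 and 1108 ± 44.3 at E8.5 and was not called (0.41 ± 0.10).

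Primitive red cell genes gave rises and no falls. Of 24 tested, 12 rose and 0 fell, 8 more were different at an adjusted p below 0.05 and under 2-fold, and the median was 1.01. Alas2, the erythroid enzyme that starts haem synthesis, had signals of 1922, 1385 and 1057 at E9.5, against 250.2, 239 and 177 at E8.5. Hemgn, a nuclear protein of blood progenitors, had 1058, 711 and 701 at E9.5, against 162, 140.3 and 137 at E8.5, Ermap, a red cell membrane protein, had 681, 421 and 416 at E9.5, against 141, 134 and 41.0 at E8.5, and Rhag, of the Rhesus complex, had 407, 236 and 297 at E9.5, against 65.0, 31.1 and 67.8 at E8.5. The changes were 2.55 ± 0.21, 2.28 ± 0.20, 2.10 ± 0.33 and 2.08 ± 0.27, and E9.5 replicate 1 was the highest array of all 4 genes. The embryonic globins, chosen here after their values were seen, had higher signals as well, with 40733 ± 2628 at E9.5 and 13769 ± 3401 at E8.5 for Hba-x, 38732 ± 6733 at E9.5 and 15258 ± 1418 at E8.5 for Hbb-y and 52423 ± 6305 at E9.5 and 31031 ± 4061 at E8.5 for Hbb-bh1. The first and second of these were called (1.59 ± 0.33 and 1.33 ± 0.17), and Hbb-bh1 was not (0.76 ± 0.24). Globin probe sets can share targets with related globin genes. Tfrc, the transferrin receptor, and Car2, a carbonic anhydrase, were not called, at 0.41 ± 0.07 and 0.20 ± 0.16.

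The promoter of Alas2 is shown for the GATA motif, read by the erythroid factor GATA1, because Alas2 was the red cell gene with the largest change among those that held a motif searched for this list. Its window is chrX:150547167-150547466 in GRCm38.p6, plus strand, from RefSeq, and the capitals mark AGATAA on the other strand.
Alas2: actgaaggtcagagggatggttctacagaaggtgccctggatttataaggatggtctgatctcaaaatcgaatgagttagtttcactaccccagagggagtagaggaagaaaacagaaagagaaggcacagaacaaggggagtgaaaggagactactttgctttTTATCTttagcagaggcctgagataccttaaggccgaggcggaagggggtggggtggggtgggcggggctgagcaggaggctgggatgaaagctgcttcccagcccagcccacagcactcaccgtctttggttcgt
AGATAA or its reverse complement stood in 7 of 17 red cell genes with a promoter in the table and in 5 of 10 of the called ones, against 12.7% of all genes. CACACCC, the letters read by KLF1, stood in 2 of the 17 and in 1 of 10 of the called ones, against 9.05%.

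Vessels and other blood gave few calls. Of 27 endothelial genes 1 rose and 1 fell (median 0.21). In 7 more the adjusted p was below 0.05 with a change under 2-fold. The stages did not overlap in 14 of the 27, against 29.7% of all genes. Emcn, a sialomucin of veins and capillaries, had signals of 1510.3, 1440.3 and 1525 at E9.5, against 509, 475 and 488 at E8.5, a change of 1.56 ± 0.23. Etv2, the factor that starts the endothelial and blood programme, had 181, 156 and 204 at E9.5, against 857, 783 and 748 at E8.5, a change of -2.0 ± 0.26. Among 22 genes of macrophages and other blood cells, Pf4, made by megakaryocytes and early macrophages, rose, with 672, 607 and 631 at E9.5, against 125, 93.2 and 59.9 at E8.5. Spi1, the myeloid factor PU.1, was called lower, but its arrays overlapped, with 30.6, 3.78 and 55.4 at E9.5, against 102, 108 and 51.8 at E8.5, and the call was lost without E8.5 replicate 1 (-0.99), E8.5 replicate 2 (-0.96), E9.5 replicate 2 (-0.70), in the fit of E7.5 to E10.5 (-1.10), in the fit of both stages alone (-1.10), with the larger pseudocount (-0.52) and without the first-numbered arrays (-1.05).

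Hox genes were called in both directions. Among paralogues 9 to 13, 6 of 11 rose and 0 fell (median 1.11), and 2 rose with a pseudocount 4 times larger. Among paralogues 5 to 8, 1 of 8 rose and 1 fell (median 0.32), and among paralogues 1 to 4, 1 of 10 rose and 2 fell (median -0.11). Hoxc10 had signals of 467, 428 and 419 at E9.5, against 99.1, 66.9 and 64.7 at E8.5, Hoxd10 had 413, 256 and 221 at E9.5, against 68.2, 61.5 and 69.5 at E8.5, and Hoxd13, the last gene of its cluster, had 236, 208 and 175 at E9.5, against 41.8, 85.5 and 38.5 at E8.5. The stages lay apart in all 3 genes, which rose by 2.19 ± 0.17, 1.76 ± 0.21 and 1.56 ± 0.23, Hoxd13 not being called with the larger pseudocount (0.97). Hoxd11 (1.62 ± 0.30) and Hoxa11 (1.15 ± 0.17) rose too. Hoxd11 lost its call with the larger pseudocount (0.88), and Hoxa11 with the larger pseudocount (0.84) and after quantile normalization (0.94). Hoxa10 was called (1.11 ± 0.26), but the call was lost without E8.5 replicate 2 (0.97), with the mean over probe sets (0.48), with the larger pseudocount (0.75) and after quantile normalization (0.95), and its 1 other probe set moved the opposite way.

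At the other end of the clusters, Hoxb1, of the fourth hindbrain segment and the tail, had 367, 381 and 316 at E9.5, against 787, 834 and 832 at E8.5, and Hoxd1 had 248, 244 and 247 at E9.5, against 870.4, 697 and 671 at E8.5. Both fell, with changes of -1.15 ± 0.16 and -1.50 ± 0.21. Hoxc8, a thoracic gene, also fell (-1.32 ± 0.13), while Hoxc5 rose (1.23 ± 0.24). Hoxa9 stayed under 2-fold, at 1605 ± 268 at E9.5 and 2614 ± 178 at E8.5 (-0.70 ± 0.13), and so did Hoxd9 (-0.13 ± 0.17). The count of called genes by paralogue group describes these lists, and the difference between groups was not tested.

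**Figure D2:**
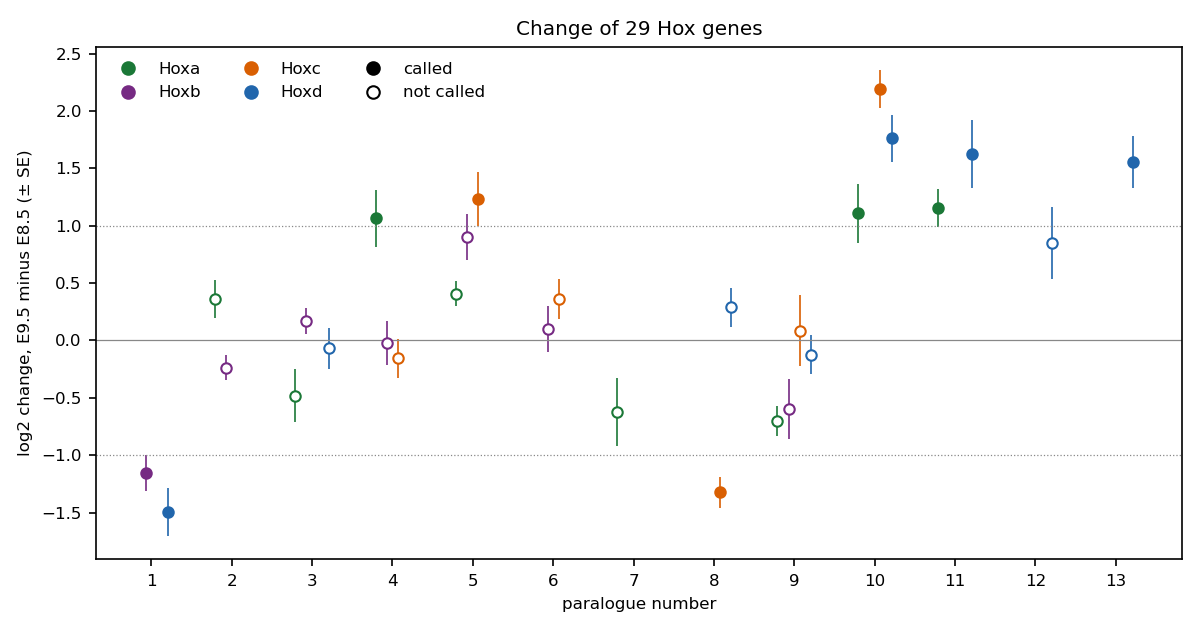
Change of each Hox gene tested, as log2(signal + 25.9) at E9.5 minus E8.5 with its SE, by paralogue number (1 to 13) and cluster (colour). Filled points were called. The called rises of paralogues 10 to 13 lie between 1.11 and 2.19, and both genes of paralogue 1 were called lower.

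The growth zone of the tail lost signal in most of its genes. Of 22 genes of the primitive streak and tail bud, 16 fell and 0 rose, the median was -1.19, 13 to 15 fell when any one array was left out, and 10 with a pseudocount 4 times larger. Their summed signal was 4514, 4785 and 4504 at E9.5, against 13996, 12852 and 13059 at E8.5. Cdx1, Cdx4 and Cdx2, homeobox genes that drive trunk elongation, led the list. Cdx1 had signals of 68.3, 76.5 and 64.4 at E9.5, against 595, 519 and 549.9 at E8.5, Cdx4 had 171, 222 and 119 at E9.5, against 1146, 1073 and 1140.4 at E8.5, and Cdx2 had 250.3, 346 and 299 at E9.5, against 1532, 1192 and 1250.2 at E8.5. In all 3 genes the lowest E8.5 array was several times above the highest E9.5 array, and the changes were -2.60 ± 0.22, -2.58 ± 0.26 and -2.06 ± 0.31.

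Mixl1, a streak gene of mesendoderm, and Nkx1-2, which marks the caudal epiblast that feeds spinal cord and somites, fell, with changes of -2.33 ± 0.41 and -2.30 ± 0.19. Cyp26a1, the enzyme that clears retinoic acid from the tail, had 487, 419 and 434 at E9.5, against 1986, 1825 and 1758 at E8.5. Wnt3a and Greb1, also of the tail bud, were not called, at -0.40 ± 0.26 and -0.54 ± 0.12.

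In the presomitic mesoderm, where the segmentation clock runs, 5 of 18 genes fell and 0 rose (median -0.23). Hes7, a clock gene, had signals of 100, 123 and 49.0 at E9.5, against 317, 552 and 469 at E8.5. Tbx6, which sets paraxial identity, had 166, 159.7 and 124 at E9.5, against 551, 484 and 456 at E8.5, and Dusp4, a phosphatase of the FGF pathway, had 712, 704 and 721 at E9.5, against 2150.4, 1775 and 2135 at E8.5. All 3 fell without overlap, with changes of -2.04 ± 0.39, -1.58 ± 0.18 and -1.46 ± 0.12. Msgn1 was called lower (-1.09 ± 0.32) but the call was lost without E8.5 replicate 1 (-1.07), E8.5 replicate 2 (-1.09), E8.5 replicate 3 (-1.09), E9.5 replicate 1 (-1.02), E9.5 replicate 2 (-0.95), with the larger pseudocount (-0.75), with the smaller pseudocount (-1.23), after quantile normalization (-0.96) and without the first-numbered arrays (-1.0). Dusp6 and Nrarp, targets of FGF and of Notch, were not called, at -0.04 ± 0.13 and 0.91 ± 0.09.

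Of 19 pluripotency genes tested 6 fell and 0 rose. Pou5f1, the factor OCT4 of epiblast and germ cells, had 17.9, 37.5 and 10.7 at E9.5, against 189, 139.9 and 208 at E8.5, against a mean of 2765 at E7.5. Tdgf1, a NODAL co-receptor, had 26.9, 36.0 and 4.82 at E9.5, against 158, 164 and 165 at E8.5. Lin28a, an RNA-binding protein that blocks let-7, kept a high level but fell, with 5932, 5747 and 5877 at E9.5, against 15195, 13799 and 14048 at E8.5, a change of -1.29 ± 0.20. Its partners in a list of 9 genes of the LIN28 pathway, Hmga2 (0.07 ± 0.18) and Igf2bp3 (0.04 ± 0.07), were not called.

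A few genes of somites and their derivatives rose. Of 15 genes of somite derivatives, 4 rose, 0 fell and 11 were not called (median 0.03). With the larger pseudocount 1 rose. Pax1, of the sclerotome that forms vertebrae, had signals of 231, 180.0 and 238 at E9.5, against 73.8, 54.4 and 70.5 at E8.5, Uncx, of the back of each somite, had 175, 183 and 175 at E9.5, against 46.9, 52.6 and 61.4 at E8.5, and Tbx18, of the front, had 447, 535 and 390.0 at E9.5, against 145, 172 and 209.6 at E8.5. The stages did not overlap in these genes, which rose by 1.39 ± 0.24, 1.36 ± 0.20 and 1.26 ± 0.22. Pax1 was not called with the mean over probe sets (0.70) and with the larger pseudocount (0.91), and Uncx not with the larger pseudocount (0.84). Meox1, strong in all somites, was at 1699 ± 154 at E9.5 and 1552 ± 114 at E8.5 and not called (0.13 ± 0.20).

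Skeletal muscle genes gave few calls. Of 23 tested 3 rose and 0 fell (median 0.19). Myog, the factor that starts muscle differentiation, had 153, 119 and 155 at E9.5, against 4.2, 5.54 and 17.6 at E8.5, Myh3, embryonic myosin, had 118, 134 and 127 at E9.5, against 28.2, 14.9 and 6.53 at E8.5, and Myf6 had 61.3, 68.1 and 32.0 at E9.5, against 8.27, 2.51 and 2.39 at E8.5. The rises were 2.28 ± 0.22, 1.87 ± 0.17 and 1.37 ± 0.28, and with the larger pseudocount Myh3 (0.94) and Myf6 (0.54) were not called. The largest signals in this list belonged to genes shared with the heart, and neither Actc1 (-0.27 ± 0.12) nor Myl4 (-0.16 ± 0.16) was called.

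Connective tissue matrix rose in 7 of 23 genes and fell in 0 (median 0.55). Col3a1, a fibrillar collagen of loose mesenchyme, had signals of 11908, 9082 and 9718 at E9.5, against 1817, 1739.9 and 1460.3 at E8.5. Postn, periostin of valves and connective tissue, had 2375, 2540.2 and 2913 at E9.5, against 770.3, 897 and 725 at E8.5, Lum, a small proteoglycan, had 2206, 2265 and 2461 at E9.5, against 909, 824 and 725 at E8.5, and Col1a1 had 1045, 812 and 1044 at E9.5, against 366, 428 and 243 at E8.5. Changes were 2.59 ± 0.15, 1.68 ± 0.13, 1.47 ± 0.16 and 1.44 ± 0.17. Ptn and Mdk, secreted growth factors with strong signals at both stages, were not called (-0.08 ± 0.22 and 0.13 ± 0.11). Of 16 genes of cartilage and sclerotome, 3 rose and 0 fell, among them Col11a1 (1.47 ± 0.16), while Col2a1, the main cartilage collagen, was at 1753 ± 172 at E9.5 and 1134 ± 45.6 at E8.5 (0.61 ± 0.30, not called).

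Few contractile genes of the heart were called between these stages. Of 25 tested, 3 rose, 1 fell and 5 more differed at an adjusted p below 0.05 and under 2-fold. The stages did not overlap in 14 of the 25, against 29.7% of all genes. The median was -0.15, beside a median of 3.43 from E7.5 to E8.5. Myl2, the light chain of the ventricle, had signals of 4797, 5160.4 and 4941 at E9.5, against 2176, 2192 and 1825 at E8.5, and Nppa, the natriuretic peptide of working chamber muscle, had 1059.9, 1097 and 1058 at E9.5, against 466, 453 and 345 at E8.5. Both rose, by 1.26 ± 0.18 and 1.31 ± 0.12, and Pln, the brake on the calcium pump, rose by 1.12 ± 0.24, a call lost with the larger pseudocount (0.73) and after quantile normalization (1.00). Ankrd1, a stress-sensitive protein of the sarcomere, fell, with 787, 769.6 and 757 at E9.5, against 2341, 2334 and 1957 at E8.5. Actc1 at 15694 ± 774 at E9.5 and 18902 ± 1585 at E8.5 and Tpm1 at 9489 ± 472 at E9.5 and 11868 ± 1579 at E8.5 were not called. Of 24 cardiac regulators and valve genes 0 rose and 1 was called lower, Bmp2 (-1.0 ± 0.17), a call lost without E8.5 replicate 2 (-0.98), E8.5 replicate 3 (-0.87), E9.5 replicate 1 (-0.86), E9.5 replicate 3 (-0.90), with the larger pseudocount (-0.84) and after quantile normalization (-0.88). None of 9 smooth muscle genes was called in the limma fit (4 had an unadjusted p below 0.05, and 1 was called lower after scaling by the 75th percentile), with Acta2 at 7970.1 ± 395 at E9.5 and 9591 ± 273 at E8.5.

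Genes tied to turning and the left-right axis gave 1 call. Of 8 tested, 0 rose and 1 fell, against 1.68% of all genes called lower. The one was Cfc1, a co-receptor of NODAL, with 91.2, 112 and 89.1 at E9.5, against 229, 232 and 329 at E8.5 and a change of -1.22 ± 0.21, not called with the larger pseudocount (-0.86). Cited2, a transcriptional co-factor of the left side and heart, was at 3529 ± 119.7 at E9.5 and 5287 ± 607 at E8.5 (-0.57 ± 0.08), and Acvr2b, a NODAL receptor, changed by -0.24 ± 0.12. Neither was called. The list as written had 15 genes, and the other members were not analysed here.

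**Figure D3:**
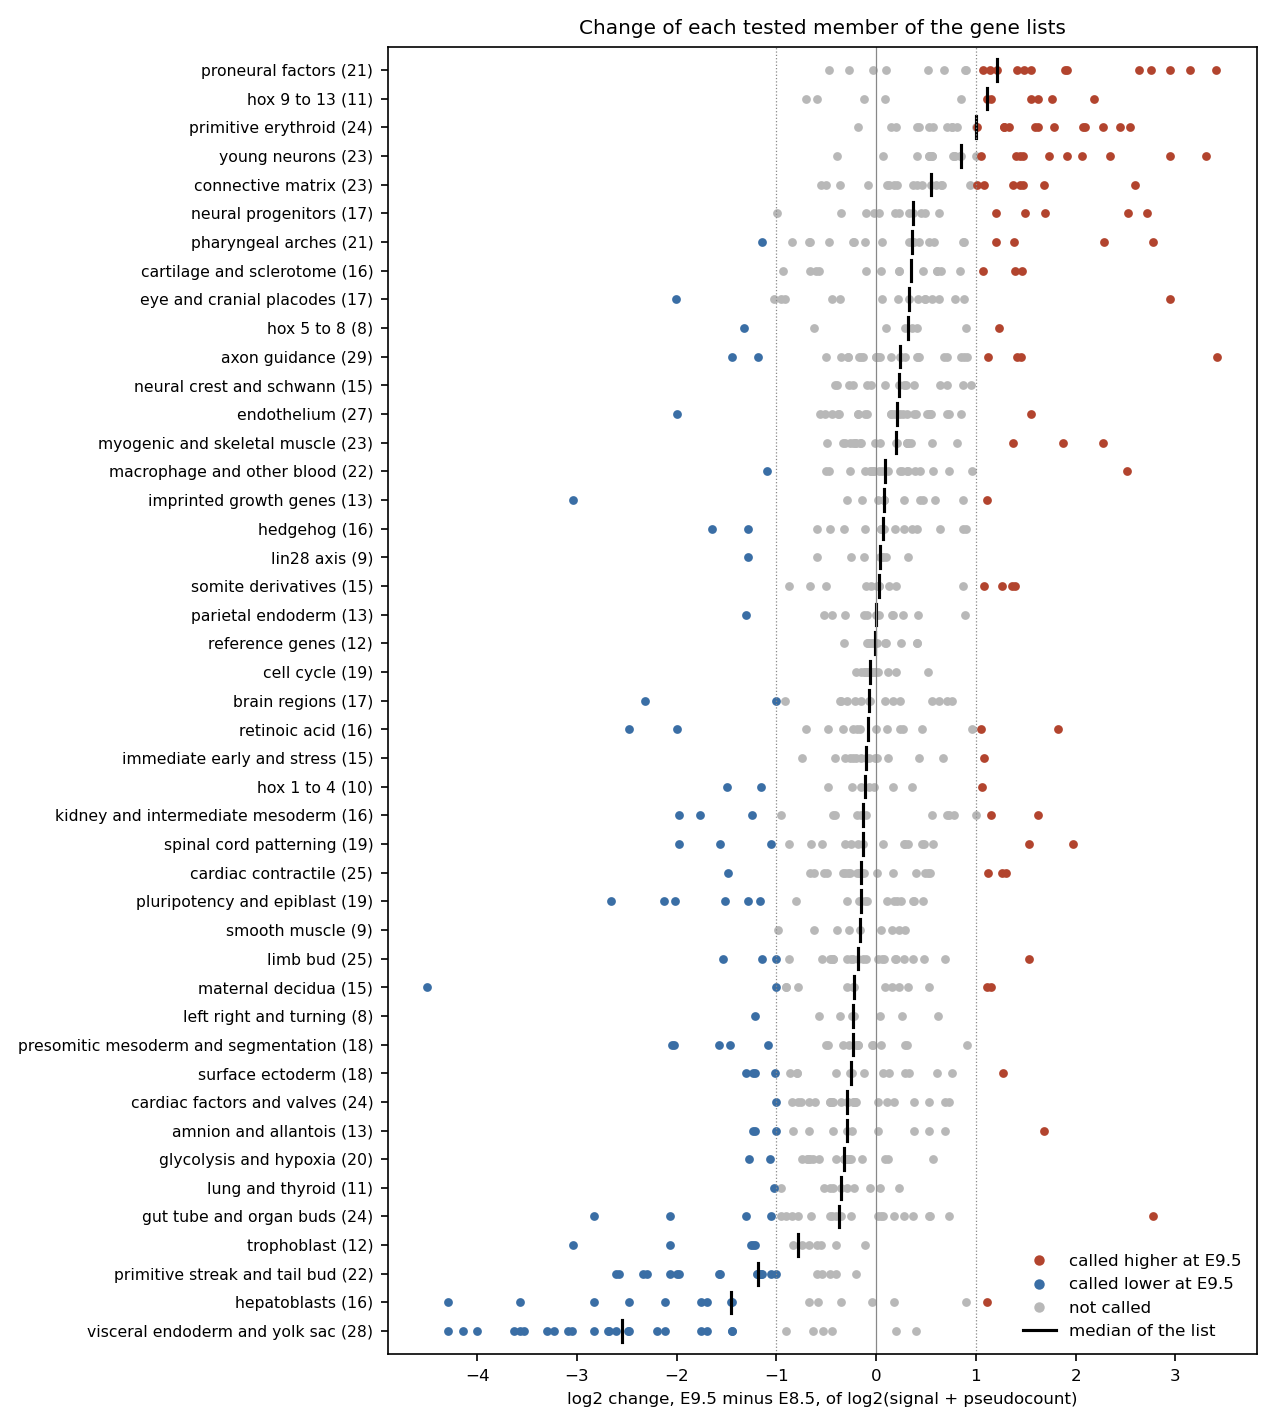
Each point is a tested gene, placed by its log2 change (E9.5 minus E8.5) in the row of its list, with the number of members tested in brackets. Red points were called higher and blue lower, and the black line is the median of the list. Proneural factors lie at the top (median 1.21), and visceral endoderm and yolk sac at the bottom (median -2.55).

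Limb bud and pharyngeal arch genes gave few calls. Of 25 limb bud genes, 1 rose and 3 were called lower (median -0.18), and between 1 and 3 were called lower when any one array was left out. Prrx1, of limb and facial mesenchyme, had signals of 1575, 1416 and 1526 at E9.5, against 536, 453 and 524 at E8.5, a change of 1.53 ± 0.15. Sall4, a stem cell and limb factor, fell, with 3907, 3419.9 and 3478 at E9.5, against 8585, 7737 and 7707 at E8.5. Sall3 was called lower (-1.54), a call lost without E8.5 replicate 1 (-1.43) and without E9.5 replicate 2 (-0.96). Fgf8, the signal of the limb ridge, midbrain boundary and tail, was called lower (-1.0 ± 0.24), but this call was lost without E8.5 replicate 1 (-0.84), E9.5 replicate 2 (-0.99), E9.5 replicate 3 (-0.96), with the larger pseudocount (-0.78), after quantile normalization (-0.86) and without the first-numbered arrays (-0.90). Irx3 and Meis2 were not called (-0.18 ± 0.10 and 0.37 ± 0.30).

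Of 21 genes of the pharyngeal arches, which build face and neck, 4 rose and 1 was called lower (median 0.36). Dlx1, of arch crest and forebrain, had 228, 102 and 117 at E9.5, against 3.67, 21.9 and 2.45 at E8.5, a change of 2.29 ± 0.25, and Lhx8, of the jaw mesenchyme, rose by 1.38 ± 0.24, a call lost with the larger pseudocount (0.66). Dlx2 was called (1.2 ± 0.27), but not without E8.5 replicate 1 (0.91) and with the larger pseudocount (0.84). Gsc, of the organizer and later the arches, had 3.05, 3.92 and 4.94 at E9.5, against 31.9, 55.4 and 35.4 at E8.5, and its values at E10.5 were above both (134, 149.7 and 159). Its fall was not called without E8.5 replicate 2 (-1.0) and with the larger pseudocount (-0.42). Hand2 was at 1389 ± 127 at E9.5 and 1627 ± 26.1 at E8.5 and was not called.

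Genes listed for organ buds of the gut gave more falls than rises, and other tissues share some of those that fell. Of 24 genes of the gut tube and its buds, 4 were called lower and 1 higher (median -0.37). The rise was Barx1, described above. Hnf4a, a factor of yolk sac endoderm, liver and gut, had 34.6, 7.02 and 8.12 at E9.5, against 351, 204 and 254 at E8.5, and Cldn6, a tight junction protein of early epithelia, had 919.6, 798 and 884 at E9.5, against 2295, 2027 and 2221 at E8.5. Both fell without overlap, with changes of -2.83 ± 0.27 and -1.31 ± 0.13. Cdx2, which also stood in the tail bud and trophoblast lists, fell as given above. Sox2, of foregut as well as neural tube, and Shh, of the gut lining, were not called. Of 11 lung and thyroid genes 0 rose and 1 was called lower, Etv5, an FGF target, with 583, 555 and 525 at E9.5, against 1114, 1148 and 1198 at E8.5. That call (-1.02 ± 0.12) was lost without E8.5 replicate 3 (-1.0), E9.5 replicate 3 (-0.99), with the mean over probe sets (-0.94), with the larger pseudocount (-0.94) and after quantile normalization (-0.92).

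Kidney and intermediate mesoderm genes went both ways, with 2 of 16 called higher and 3 lower (median -0.13). The rises were the Hox genes Hoxd11 and Hoxa11, neither of them called with the larger pseudocount. The falls were Lhx1, Cited1, a co-factor of kidney progenitors that is also strong in early extraembryonic tissue, with 955, 916 and 662 at E9.5, against 3572, 2526 and 2692 at E8.5, and Osr1 (-1.24 ± 0.33), whose call was lost without E9.5 replicate 3 (-1.10) and with the larger pseudocount (-0.99). Retinoic acid genes divided too, 2 of 16 each way. Aldh1a3, a retinoic acid synthase of the eye and nose, had 273, 278 and 327 at E9.5, against 98.7, 102 and 18.9 at E8.5, a change of 1.83 ± 0.37 (adjusted p = 0.0015), while Cyp26a1 and Rbp4, the retinol carrier of plasma, fell. The binding proteins Crabp1 and Crabp2 were strong at both stages, with 12235 ± 1169 at E9.5 and 10118 ± 635 at E8.5 for Crabp1, and were not called (0.27 ± 0.09 and 0.46 ± 0.08). In the hedgehog pathway 0 of 16 rose and 2 fell, Ihh (-1.64 ± 0.30), the ligand of yolk sac and gut, and Foxf1 (-1.28 ± 0.19), its target in visceral mesoderm. Ihh was not called with the larger pseudocount (-0.87). Ptch1, the receptor and target, was at 4941 ± 587 at E9.5 and 6814 ± 798 at E8.5 (-0.46 ± 0.10) and was not called.

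The largest falls included many genes listed for visceral endoderm and yolk sac. Of 28 genes of visceral endoderm and yolk sac, 22 fell and 0 rose, with a median of -2.55, and 22 fell whichever array was left out. Their summed signal was 8750.4, 7538 and 14299 at E9.5, against 57947, 51749 and 51056 at E8.5. Spink1, a secreted protease inhibitor, had signals of 130.4, 147 and 243 at E9.5, against 3489, 3202 and 3512 at E8.5. Apoc2, the activator of lipoprotein lipase, had 47.1, 32.4 and 242 at E9.5, against 1957, 1507 and 1522 at E8.5, and Apom, an apolipoprotein of small HDL particles, had 84.6, 95.6 and 217 at E9.5, against 2243, 1533 and 1383 at E8.5. In each the lowest E8.5 array was several times above the highest E9.5 array, with changes of -4.15 ± 0.20 (adjusted p = 1.4e-11), -4.00 ± 0.37 (adjusted p = 2.0e-07) and -3.53 ± 0.22 (adjusted p = 8.3e-10). E9.5 replicate 3 was the highest of its stage in all 3 genes.

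The apparatus by which yolk sac endoderm takes up maternal protein fell as a pair. Cubn, cubilin, had 87.6, 9.09 and 302 at E9.5, against 1182, 921 and 1065 at E8.5, and Amn, amnionless, which carries cubilin to the membrane, had 58.0, 59.6 and 169 at E9.5, against 1053, 815 and 837 at E8.5. Slc2a2, a glucose transporter, had 4.17, 7.11 and 109 at E9.5, against 784, 680.1 and 581 at E8.5, Slc13a4, a sulphate transporter, had 45.6, 13.1 and 36.7 at E9.5, against 862, 638 and 535 at E8.5, and S100g, a calcium-binding protein of absorbing epithelia, had 32.9, 6.66 and 98.4 at E9.5, against 824, 463 and 443 at E8.5. The changes were -3.30 ± 0.54, -3.04 ± 0.25, -3.78 ± 0.36, -3.63 ± 0.39 and -3.23 ± 0.35. Cldn2 (-3.08 ± 0.30), of leaky tight junctions, and Car7 (-2.94 ± 0.26), a carbonic anhydrase, completed the 12 largest falls of named genes with Prl8a2 and Phlda2 below. Slc2a2 and Car7 stood in none of the lists. Apoa1 (-4.29) and Ttr (-3.57), plasma proteins of the yolk sac list chosen after their values were seen, were called lower as well, but their probe sets may cross-hybridise. Of the 12, all but Prl8a2 had been higher still at E7.5, with means from 1457 (S100g) to 23675 (Phlda2). Slc39a8 and Foxa1 of the list were not called, at 0.20 ± 0.16 and -0.90 ± 0.13.

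The promoter of Apoc2 is shown because it was the list member with the largest change among those that held a motif of liver-type factors. Its window is chr7:19677892-19678191 in GRCm38.p6, minus strand, from RefSeq, with the HNF1-type motif GTTAAT in capitals.
Apoc2: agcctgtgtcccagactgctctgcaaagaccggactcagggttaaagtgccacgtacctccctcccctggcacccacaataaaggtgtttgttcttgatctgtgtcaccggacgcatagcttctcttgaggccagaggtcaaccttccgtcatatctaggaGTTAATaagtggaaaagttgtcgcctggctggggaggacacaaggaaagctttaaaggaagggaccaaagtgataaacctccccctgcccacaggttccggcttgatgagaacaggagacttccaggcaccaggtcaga
GTTAAT, searched on both strands, stood in 5 of 25 yolk sac genes with a promoter in the table and in 5 of 20 of the called ones, against 8.24% of all genes. AAAGTCC, a form of the HNF4 site, stood in 1 of the 25 and in 0 of 20 of the called ones, against 4.84%.

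Of 16 hepatoblast genes, 9 fell and 1 rose (median -1.45), and 8 of the 9 also stood in the yolk sac list. Rbp4 had signals of 436, 556 and 1004 at E9.5, against 4189, 3379 and 3271 at E8.5, Apob, the main protein of large lipoproteins, had 55.9, 88.7 and 225 at E9.5, against 642, 493 and 531 at E8.5, and Fgb, a chain of fibrinogen, had 135, 85.3 and 129 at E9.5, against 599, 402 and 374 at E8.5. The stages did not overlap in the 3 genes, which changed by -2.47 ± 0.18, -2.12 ± 0.34 and -1.75 ± 0.16. The one rise was Dlk1, a growth regulator of liver and other mesenchyme, with 7037, 5643 and 5488 at E9.5, against 3028, 2976 and 2354 at E8.5, called (1.11 ± 0.13), a call lost without E8.5 replicate 3 (1.00) and with the mean over probe sets (0.59). Alb, albumin, was at 71.1 ± 40.4 at E9.5 and 25.1 ± 19.2 at E8.5 (0.90 ± 0.29, not called) and was chosen after its values were seen.

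Some markers of trophoblast and of the maternal decidua were called too. Of 12 trophoblast genes 5 fell and 0 rose (median -0.79), and their summed signal was 8329, 8748 and 8556 at E9.5, against 26324, 22285 and 23356 at E8.5. Phlda2, an imprinted growth suppressor of placenta and yolk sac, had 590.2, 649.8 and 787 at E9.5, against 5742, 5520.4 and 5825 at E8.5, a change of -3.04 ± 0.14. Krt8 and Krt18, keratins of simple epithelia, had 3053 ± 291 at E9.5 and 7164 ± 1375 at E8.5 and 3495 ± 259.8 at E9.5 and 8232 ± 505 at E8.5 and fell, with changes of -1.21 ± 0.13 and -1.23 ± 0.07. Cdx2, a trophoblast gene that the tail shares, fell as given above. Ascl2, a trophoblast progenitor factor, had 10.7, 14.6 and 12.2 at E9.5, against 67.4, 104 and 36.4 at E8.5, and its call (-1.25 ± 0.30) was lost without E8.5 replicate 2 (-0.99), with the mean over probe sets (-0.88) and with the larger pseudocount (-0.56).

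Prl8a2, a prolactin-related hormone of the decidua, gave the largest fall of all named genes, with 20.4, 27.1 and 53.2 at E9.5, against 2661, 747 and 1050.1 at E8.5. The E8.5 arrays differed among themselves by more than 3-fold, and the change was -4.50 ± 0.36 (adjusted p = 2.4e-08). In the decidua list as a whole 2 of 15 rose and 2 were called lower (median -0.22). The lower calls were Prl8a2 and Bmp2, and that of Bmp2 was lost in the settings given above with the cardiac regulators. The rises were Hoxa10 and Hoxa11, which the embryo expresses as well and which were not called after quantile normalization, and the summed signal was 12888, 18261 and 17462 at E9.5, against 19511, 19048 and 21034 at E8.5. Of 13 genes of parietal endoderm 1 fell, Srgn, a proteoglycan core protein, with 63.0, 43.1 and 67.2 at E9.5, against 296, 102 and 181 at E8.5, a call lost without E8.5 replicate 1 (-0.98) and with the larger pseudocount (-0.83), and the median was 0.00 (-0.03 and -0.02 under 2 other scalings). Of 13 genes of amnion and allantois 3 were called lower and 1 higher (median -0.29).

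These lists mark tissues other than the embryo proper, and the labels exclude the amnion but say nothing of yolk sac, placenta or decidua. Their part in the changes of other lists was not tested. The lists of proneural factors and neural progenitors share no gene with them. That is no test of such a part, since all signals of an array were scaled together. Surface ectoderm shared Krt8, Krt18 and Cldn6 with the lists above, and in it 4 of 18 were called lower and 1 higher, Trp63, the factor of stratified epithelium, with 282, 254 and 313 at E9.5, against 107, 108 and 91.3 at E8.5, a call lost with the mean over probe sets (0.77) and with the larger pseudocount (0.91). Epcam, an adhesion protein of epithelia, was at 719 ± 41.2 at E9.5 and 1262 ± 108 at E8.5 and was not called (-0.79 ± 0.15).

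**Figure D4:**
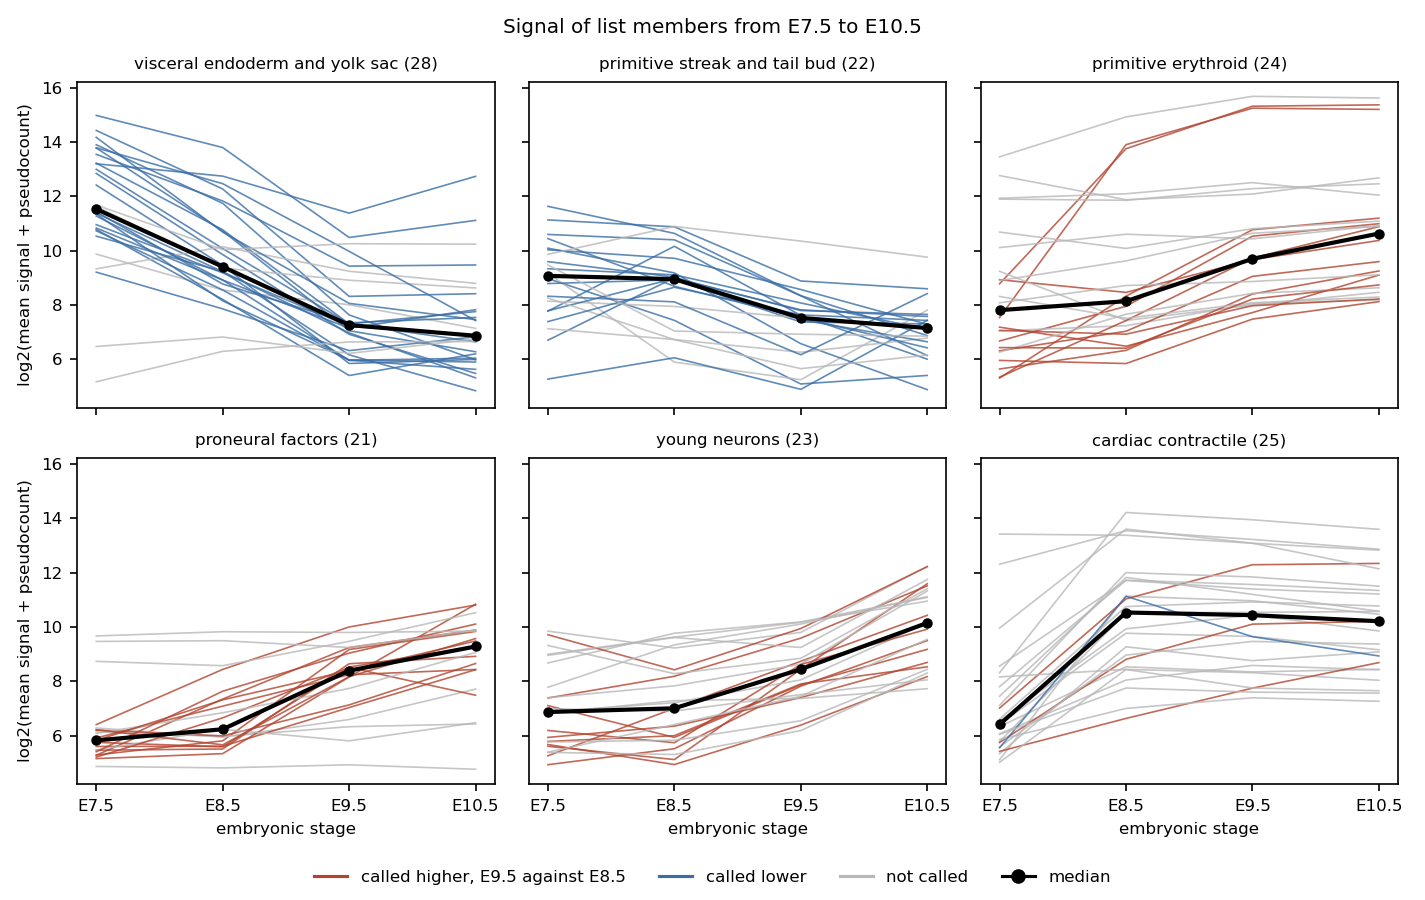
Each thin line is a gene, as log2 of its mean signal plus 25.9 at the 4 stages of E7.5 to E10.5 (3 arrays each), coloured by its call between E9.5 and E8.5, and the black line is the median of the list. Between E8.5 and E9.5, 22 of 28 yolk sac and 16 of 22 tail bud genes fell, and 12 of 24 red cell, 13 of 21 proneural and 10 of 23 young neuron genes rose. The median change of the contractile genes of the heart was 3.43 to E8.5 and -0.15 to E9.5.

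Genes of sugar metabolism differed by small amounts. Of 20 genes of glycolysis and hypoxia, 2 fell, 0 rose, 10 more differed at an adjusted p below 0.05 and under 2-fold, and the median was -0.32. Slc2a3, a glucose transporter of embryo and placenta, had signals of 8917, 9559 and 9850.2 at E9.5, against 23835, 22311 and 22411 at E8.5, a change of -1.27 ± 0.08. Slc16a3, a lactate exporter, had 1534, 1500.2 and 1257 at E9.5, against 3212, 2905 and 2925 at E8.5, called (-1.07 ± 0.09) but not without E9.5 replicate 3 (-0.98). Pgk1 at 26339 ± 1549.7 at E9.5 and 32815 ± 1207 at E8.5 and Ldha at 31151 ± 3545 at E9.5 and 37413 ± 2268 at E8.5 were not called.

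Several groups gave few calls or none. None of 19 cell cycle genes was called in the limma fit (3 had an unadjusted p below 0.05), their median was -0.06, and Pcna had 33242 ± 1857 at E9.5 and 34761 ± 3275 at E8.5. Of 13 imprinted growth genes, Dlk1 rose and Phlda2 fell, while Mest and Grb10 had changes of 0.08 ± 0.10 and 0.08 ± 0.10. Of 15 immediate early and stress genes, which rise with handling of tissue, 1 was called higher, Jun (1.08 ± 0.13), a call lost without E8.5 replicate 3 (0.92), with the mean over probe sets (0.99), with the larger pseudocount (0.99) and after quantile normalization (0.95). Dnajb1 and Hsph1, heat shock chaperones, changed by 0.01 ± 0.11 and -0.31 ± 0.09 and were not called.

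Whether the change of this day differed from that of the next was tested gene by gene as the step to E9.5 minus the step to E10.5. The steps share the E9.5 arrays, so a chance deviation of E9.5 enters both. Of 14044 genes 331 differed (2.36%), of which 78 (0.555%) had a more positive step to E9.5 and 253 (1.8%) a more negative one, at an adjusted p below 0.05 and a difference of at least 1 on the log2 scale. In the yolk sac list 17 of 28 had the more negative step to E9.5. The median change of that list was -2.14 to E8.5, -2.55 to E9.5 and -0.07 to E10.5. Against the step to E8.5, 6 of its genes had a more negative step to E9.5 and 3 a more positive one. Hnf4a is an example, at 269.6 ± 74.8 at E8.5, 16.6 ± 15.6 at E9.5 and 47.9 ± 26.8 at E10.5, a difference of steps of -3.62 ± 0.47. Its mean at E9.5 was below the lower quartile of those arrays (18.6 to 24.9). Genes near that level at E9.5 could hardly fall further, which by itself favours a more negative step to E9.5. Proneural factors had 5 of 21 with the more positive step, among them Neurod4, at 19.6 ± 8.88, 374 ± 43.9 and 457 ± 24.8 in stage order (2.87 ± 0.45). Young neuron genes had 5 of 23 with the more negative step and 0 the other way, and their median change was 0.85 to E9.5 and 1.77 to E10.5. Dcx reached 3048 ± 59.0 at E10.5, and its steps did not differ by the rule (0.12 ± 0.38). Macrophage and other blood genes had 7 of 22 with the more negative step.

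Against the day before 1374 genes differed (9.78%), and 622 genes (4.43%) had a more positive and 752 (5.35%) a more negative step to E9.5 than to E8.5. The contractile genes of the heart were 21 of 25 among the more negative, as in Actc1, at 292 ± 31.9, 18902 ± 1585 and 15694 ± 774 in stage order (-6.16 ± 0.20), and Myh6, the atrial myosin, at 8.79 ± 8.60, 2211 ± 279 and 1967 ± 261 (-6.20 ± 0.26). Pluripotency genes were 11 of 19 among the more positive, and their median change from E7.5 to E8.5 was -2.59. Utf1, an epiblast gene, was at 1771 ± 343, 62.8 ± 33.3 and 71.0 ± 85.7, and Dnmt3l, a co-factor of DNA methylation, at 1028 ± 50.6, 8.96 ± 3.92 and 17.5 ± 24.4. Their differences of steps were 4.25 ± 0.94 and 5.11 ± 0.62. The E8.5 mean of Dnmt3l was below the lower quartile of those arrays (19.8 to 24.3). Genes near that level at E8.5 could hardly fall further, which by itself favours a more positive step to E9.5. Tail bud genes were 12 of 22 among the more negative, among them Cdx4, at 193 ± 14.9, 1119.8 ± 40.2 and 171 ± 51.4 (-4.96 ± 0.45), and 12 of 23 connective matrix genes were as well. Hoxb5os, an antisense transcript of the Hoxb cluster, was at 132 ± 33.2, 13669 ± 2741 and 8279.7 ± 914 (-7.15 ± 0.27). Sh3gl3, an endophilin, ran the other way, at 371 ± 162, 40.3 ± 43.6 and 207 ± 34.5 (4.70 ± 0.54).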

How the data were processed

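Per the labels' protocols, a lipid tissue kit was used for the RNA of 20 pools of embryos at 8 stages, followed by one-cycle biotin labelling and Affymetrix arrays. The deposited values are a linear intensity, the MAS5 signal of each probe set, made by the authors with MAS5 per the submitters' processing notes. Its version is not given in the sources used here. The mean without the lowest and highest 2% of values was 500.0 on every array, which shows a common scaling. The number of arrays limits the precision.

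Of 45101 probe sets, 34945 apart from controls had a single gene symbol in GEO's platform annotation, 932 had several and 9211 none. The probe set with the highest mean log2 value stood for each of 18193 genes, and 14044 genes that exceeded their array's median in 2 or more samples were tested. All 20 arrays entered 1 model of log2(signal + 25.9), with a mean for each stage, in limma 3.58.1 (R 4.3.3), by lmFit and by eBayes with a trend, two-sided, with 12 residual degrees of freedom. The model was tested on simulated data for E9.5 against E8.5, with 200 of 14044 genes changed. It called 36 of 40 at a log2 change of -1.2, 37 of 40 at 1.2, 40 of 40 at -2 and at 2, and 39 of 40 at 3, with 3 of 13844 unchanged genes called. The simulated noise was normal and independent between arrays, with the fitted spread of each gene. These counts therefore leave out deviations that arrays share and do not measure the error rate in the real data.

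The comparison and the 45 gene lists were chosen with earlier results of these data known, and lists are described by counts and medians. Named genes were the 12 largest rises and falls whose arrays did not overlap, up to 5 called members of each list and the 2 strongest uncalled ones, and the 6 largest step differences each way. Uncharacterised loci, and genes whose probe set could cross-hybridise, entered counts and are not named (39 of those called). Of the 136 named genes called, 60 had other probe sets, which moved the same way in 57 and were called the opposite way in 0. Promoters come from RefSeq (GRCm38.p6). The alternatives were 2 other scalings, pseudocounts and filters, the mean of all probe sets, fewer arrays in the fit, a replicate block, single arrays left out and no minimum fold. Fits without the first-numbered arrays, and with the block in E7.5 to E10.5 alone, were added after the data were seen.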

Additional observations from a re-analysis of the deposited data

Results flagged for a closer look

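In 11 genes named by the rule, the E9.5 arrays lay apart from those of E8.5 and of E10.5. The steps were opposite in sign and different by the limma test of the difference between them. E9.5 thus had the highest (peak) or lowest (low point) signals of the 3 stages. The step to E10.5 had no test of its own. It was small in some genes, at 0.25 for Dusp4, -0.49 for Postn, 0.67 for Fgb, -0.72 for Mrap and 0.79 for Grhl3. In the other named genes it was larger than 2-fold. The steps share the E9.5 arrays and are not independent. Among all genes tested 11 peaks and 28 low points met the same conditions.

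5 of them peaked at E9.5. Aldh1a3, a retinoic acid synthase, had mean signals of 73.3, 293 and 104 at E8.5, E9.5 and E10.5, a difference of steps of 3.16 (adjusted p = 0.0074), a call lost after quantile normalization and with the smaller pseudocount. Stum had 37.9, 207 and 90.6 in the same order (3.02), and this difference was not called without E9.5 replicate 2, without E9.5 replicate 3, with the smaller pseudocount or in the fit of E7.5 to E10.5. Olig2, a factor of motor neuron progenitors, had 74.7, 338 and 153 (2.92, adjusted p = 2.0e-04). Mrap, a partner of melanocortin receptors, had 30.8, 206 and 115 (2.9), which was lost with the mean of its probe sets. Postn had 798, 2609 and 1853 (2.16, adjusted p = 5.1e-06).

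The other 6 were lowest at E9.5. Lhx1 had 32.6, 38.7 and 66.8 on the E9.5 arrays, between 230.0, 258 and 266 at E8.5 and 283, 373 and 295 at E10.5, a difference of -4.25 (adjusted p = 4.1e-08). Gsc had 3.05, 3.92 and 4.94 at E9.5, with 31.9, 55.4 and 35.4 at E8.5 and 134, 149.7 and 159 at E10.5 (-3.68). Srgn had means of 193, 57.7 and 244 in stage order (-3.0), Fgb had 458, 117 and 201 (-2.42), Grhl3, a factor of surface ectoderm and neural tube closure, had 218, 93.3 and 183 (-1.81), and Dusp4 had 2019.9, 713 and 854 (-1.72). The fall of Gsc to E9.5 was not called without E8.5 replicate 2 (-1.0) and with the larger pseudocount (-0.42), that of Srgn without E8.5 replicate 1 (-0.98) and with the larger pseudocount (-0.83), and that of Grhl3 without E8.5 replicate 1 (-0.84), E9.5 replicate 2 (-0.98), E9.5 replicate 3 (-0.95), with the larger pseudocount (-0.70), after quantile normalization (-0.92) and without the first-numbered arrays (-0.95).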

How the results depend on the processing

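None of the 136 named calls between E9.5 and E8.5 changed direction under the alternatives that were run, and 93 of them held under every alternative and with every array left out. The counts depended on the pseudocount and the minimum fold. With the larger pseudocount 148 genes rose and 118 fell, and with no minimum fold 1341 and 968, against 349 and 236. With an array left out, 341 to 394 rose and 231 to 254 fell, and without the first-numbered arrays 385 and 264. Quantile normalization gave 313 and 233, sharing 479 of the 585 calls. Of the step to E9.5 minus the step to E10.5, the 78 higher calls became 47 in the fit of E7.5 to E10.5 and 154 with no minimum fold. The 253 lower calls became 147 after quantile normalization, 122 in the fit of E7.5 to E10.5, 113 in the fit of the stages of the contrast and 150 with the replicate block in E7.5 to E10.5. With an array left out the ranges were 58 to 90 and 172 to 258. Of the step to E9.5 minus the step to E8.5, 622 and 752 became 1085 and 1358 with no minimum fold, the lower count fell to 474 with the larger pseudocount, and leaving out an array gave 571 to 667 and 666 to 765. The cause of these shifts was not tested where the construction does not show it. Medians of 31 of 45 lists moved beyond the spread between arrays in at least 1 setting.

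The labels' replicate numbers were not taken to pair the samples. Deviations of same-numbered E9.5 and E8.5 arrays correlated at 0.209, 0.0397 and 0.0787 for numbers 1, 2 and 3. The second array of E9.5 correlated better with the third of E8.5 (0.0659). First-numbered arrays also correlated between E10.5 and E9.5 (0.282) and between E8.5 and E7.5 (0.162). At each of these steps they correlated negatively with arrays numbered 2 and 3. What the first-numbered arrays share was not tested. With the replicate number as a block 350 genes rose and 238 fell, and none of the 136 named calls was lost. With the block in E7.5 to E10.5 alone, 343 rose and 231 fell, and the call of Spi1 was lost.

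In the leading lists, without the first-numbered arrays, 22 yolk sac genes fell, 13 tail bud genes fell, and 11 proneural and 11 red cell genes rose. With the larger pseudocount, list counts of at least 2 that moved by over 1.5 times were, among rises, 2 of 4 in axon guidance, 2 of 4 in pharyngeal arches, 1 of 4 in somite derivatives, 2 of 6 in Hox 9 to 13, 1 of 3 in skeletal muscle, 0 of 2 in kidney, 0 of 2 in decidua and 1 of 2 in retinoic acid. Among falls 10 of 16 were left in the tail bud, 0 of 2 in axon guidance and 1 of 2 in brain regions, decidua and hedgehog, and 9 list counts of a single call became 0. Quantile normalization left 1 of 2 rises in kidney and 0 of 2 in decidua, 1 of 2 falls in brain regions and in decidua, and 4 single calls became 0. Without the first-numbered arrays 1 of 2 falls was left in brain regions and in axon guidance.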

Other observations

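Most called genes stood in none of the lists, 264 of those that rose and 158 of those that fell. The genes below were picked from the larger changes among them after their values were seen, so they show examples and no theme was tested. Secreted and matrix proteins were among the rises, with Serpinf1, an inhibitor of vessel growth, at 2451 at E9.5 and 520.2 at E8.5 (2.18), Pcolce, which aids collagen processing, at 2351 and 542 in the same order (2.07), and Rspo2, a WNT enhancer of limb and face, at 397 and 57.4 (2.36). Shox2, a homeobox gene of limb, palate and sinus node, had means of 310.4 and 53.0 (2.09). Hoxa11os, an RNA antisense to Hoxa11, had 141 and 12.3 (2.17), beside the rise of Hoxa11. Ckb, brain creatine kinase, had 2537 and 525 (2.22).

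Among the falls outside the lists were more genes of absorbing epithelium, with the zinc transporters Slc39a5 at 17.3 at E9.5 and 164 at E8.5 (-2.25) and Slc39a4 at 30.0 and 201 (-2.06), the scaffold Pdzk1 at 61.1 and 307 (-2.12), and the folate receptor Folr1 at 177 and 668 (-1.76). Nr6a1, the germ cell nuclear factor of trunk development, had 1361 and 4411 (-1.70), and it had been at 3034 at E7.5 and was at 189 at E10.5. Nepn, nephrocan of the early gut, was highest at E8.5 among 4 stages, with 34.3, 1004, 218 and 46.9 from E7.5 to E10.5.

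Some plasma protein genes of yolk sac and liver, chosen here after their values were seen, had lower means at E9.5 than on either side. Afp, alpha-fetoprotein, had means of 6830.1, 2641 and 6788 at E8.5, E9.5 and E10.5, Plg, plasminogen, had 135, 35.9 and 162, and Apoe had 4968, 1008 and 1461. Not all such genes followed that order. Apob had 555, 123 and 94.0, Apoc2 had 1662, 107 and 51.9, and Alb, albumin, had 25.1, 71.1 and 620.2. The median change of the whole yolk sac list to E10.5 was -0.07.

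The pools differed in the genes that mark sex, although all are labelled mixed. Xist, the RNA of the inactive X chromosome, had 298, 1270.3 and 541 at E9.5, against 1508, 1486 and 1093 at E8.5. Eif2s3y, on the Y chromosome, had 739, 413 and 669 at E9.5, against 334, 302 and 422 at E8.5. Both E9.5 arrays with the lower Xist had the higher Eif2s3y, and the part of this mix in other genes was not tested.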
